A study of Mus musculus with 16 samples.

Results

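Transcripts of 9 genes that make, move or use glycerol and its phosphate were followed in adipocytes and liver of mice labelled as adipocyte-specific Trib1 knockout or wild-type. The genes were Pck1, Pck2, Pcx, Gpd1, Gyk, Aqp7, Aqp9, Fbp1 and G6pc, chosen by symbol as carriers of glyceroneogenesis, gluconeogenesis and glycerol handling, and all 9 were among the 23420 genes counted. The 4 groups were knockout-labelled adipocytes, wild-type adipocytes, knockout-labelled livers and wild-type livers, each with 4 libraries. All 8 mice were C57BL/6 males that gave one library of each tissue, and no other allele, diet or treatment is named in the labels. Named as in the titles, knockout-labelled mice ko_1137 and ko_1139 and wild-type mice wt_1135, wt_1136 and wt_1138 were taken at postnatal day 76, and knockout-labelled mice ko_1151 and ko_1152 and wild-type mouse wt_1153 at day 70. Neither the driver of the deletion nor the deleted part of Trib1 is stated. Adipocytes were freed from subcutaneous fat with collagenase, so vessel and stromal cells could be carried along, whereas whole livers were extracted with another reagent.

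Fat cells store triglyceride on a backbone of glycerol 3-phosphate. Because adipocytes hold little glycerol kinase, they form this backbone either from glucose, through dihydroxyacetone phosphate, or from pyruvate, in the pathway called glyceroneogenesis. Pyruvate carboxylase (Pcx) makes oxaloacetate, a phosphoenolpyruvate carboxykinase (cytosolic Pck1 or mitochondrial Pck2) makes phosphoenolpyruvate, and glycerol 3-phosphate dehydrogenase (Gpd1) links dihydroxyacetone phosphate with glycerol 3-phosphate. Glycerol freed by lipolysis leaves fat cells through the channel Aqp7, enters hepatocytes through Aqp9, is phosphorylated by glycerol kinase (Gyk, now also named Gk) and can leave liver as glucose after the steps of Fbp1 and G6pc.

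Total counts ran from 28560887 to 53716669 per library, so that 3 counts, the floor used for a gene at 0, stood for 0.0558 to 0.105 CPM (counts scaled to a common library total). Trib1, a pseudokinase that brings proteins to an ubiquitin ligase, did not separate the labels. It had 1071, 1273, 1408 and 1345 CPM in adipocytes of knockout-labelled mice ko_1137, ko_1139, ko_1151 and ko_1152, against 752, 925, 1226 and 1293 CPM in those of wild-type mice wt_1135, wt_1136, wt_1138 and wt_1153. These groups overlapped, and the log2 difference was 0.28 ± 0.18 (SE; edgeR quasi-likelihood test, adjusted p = 0.241). In liver, the log2 difference of Trib1 was 0.12 ± 0.18 (edgeR adjusted p = 0.875). Counts over the whole gene can miss a deletion of part of it, so genotype is given below as labelled. The tissues matched their names: 8 adipocyte markers summed to 27070 to 38240 CPM in adipocytes and 40.8 to 99.9 CPM in livers. The 10 hepatocyte markers summed to 2384 to 7990 CPM in adipocytes and 114000 to 149100 CPM in livers. In adipocytes Cyp2e1 alone gave 2361 to 7918 CPM of that sum and albumin 18.5 to 112.9 CPM.

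The 9 genes lie on 9 chromosomes. In GENCODE M21 (GRCm38, the assembly that mm10 names) Pck1 spans chr2:173153048-173159273 on the plus strand, Pck2 chr14:55540266-55551242 (plus), Pcx chr19:4510472-4621752 (plus) and G6pc chr11:101367561-101377903 (plus), and all 9 are annotated as protein-coding. Exons of antisense genes share 53 bases with Pck2, 384 with Gpd1 and 84 with Gyk. Those antisense genes are not counted in the files and the strand setting is not given in the sources used here, so reads of each pair cannot be told apart. RefSeq promoter windows (GRCm38.p6; 250 bases before to 50 after a transcription start) were found for 8 of the 9 genes, 11 windows in all. Windows of the 3 genes that differed in adipocytes and of G6pc, a gene at floor level there, are printed because those genes carry the expression results. They lie at chr2:173152823-173153122 (Pck1, plus strand), chr19:4510222-4510521 and chr19:4594069-4594368 (Pcx, plus), chr14:55540016-55540315 (Pck2, plus) and chr11:101367466-101367765 (G6pc, plus), and capitals mark matches to the motifs named after them.
Pck1: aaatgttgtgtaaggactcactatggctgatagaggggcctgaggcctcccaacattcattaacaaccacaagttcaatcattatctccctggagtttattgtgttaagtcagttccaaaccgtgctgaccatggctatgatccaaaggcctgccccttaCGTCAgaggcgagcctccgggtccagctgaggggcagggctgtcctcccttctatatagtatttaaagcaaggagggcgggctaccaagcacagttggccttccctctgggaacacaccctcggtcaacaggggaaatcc
Pcx, first start: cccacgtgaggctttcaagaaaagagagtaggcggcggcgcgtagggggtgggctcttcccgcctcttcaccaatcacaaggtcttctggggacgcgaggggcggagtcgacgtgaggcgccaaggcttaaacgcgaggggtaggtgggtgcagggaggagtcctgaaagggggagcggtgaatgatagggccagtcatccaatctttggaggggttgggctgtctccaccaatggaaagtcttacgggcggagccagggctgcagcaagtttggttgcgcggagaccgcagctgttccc
Pcx, second start: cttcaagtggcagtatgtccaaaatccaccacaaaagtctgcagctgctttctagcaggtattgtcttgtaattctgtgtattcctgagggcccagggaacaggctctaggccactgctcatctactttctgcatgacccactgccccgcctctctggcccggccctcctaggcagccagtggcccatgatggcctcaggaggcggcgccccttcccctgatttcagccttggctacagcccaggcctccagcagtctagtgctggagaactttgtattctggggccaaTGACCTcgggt
Pck2: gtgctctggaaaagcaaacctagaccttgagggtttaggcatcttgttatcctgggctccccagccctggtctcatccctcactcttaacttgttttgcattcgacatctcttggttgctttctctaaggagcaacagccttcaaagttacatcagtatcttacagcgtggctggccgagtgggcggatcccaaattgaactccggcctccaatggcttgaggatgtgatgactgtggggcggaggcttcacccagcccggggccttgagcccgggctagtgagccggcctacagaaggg
G6pc: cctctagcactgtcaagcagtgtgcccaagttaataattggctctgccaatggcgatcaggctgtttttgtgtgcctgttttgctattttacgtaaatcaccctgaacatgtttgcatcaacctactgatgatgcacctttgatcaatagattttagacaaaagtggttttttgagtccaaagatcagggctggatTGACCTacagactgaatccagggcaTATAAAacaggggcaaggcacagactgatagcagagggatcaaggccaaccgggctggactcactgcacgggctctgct
Both strands of the 11 windows were searched for 7 motifs. They were the cAMP response motif TGACGTCA and its part TGACG, the C/EBP-type motif TTGCGCAA and its looser form TTGCNNAA, the nuclear receptor motif AGGTCA, the forkhead motif TTGTTTAC and the TATA motif TATAAA, so TGACG overlaps the first and TTGCNNAA the third. The Pck1 window held TGACG on the minus strand 90 bases before the start, a motif found in 20.8% of 32851 promoters. The second Pcx window held AGGTCA on the minus strand 39 bases after its start, and AGGTCA was found in 16.3% of promoters. The G6pc window held AGGTCA 54 bases before the start and TATAAA 29 bases before it, and TATAAA was found in 13.6% of promoters. In the first Pcx window and the Pck2 window none of these letters were found. Both Aqp7 windows also held AGGTCA, the Gyk window held TGACG and one Aqp9 window held TTGCNNAA (10.8% of promoters). TGACGTCA (1.79% of promoters), TTGCGCAA (0.183%) and TTGTTTAC (1.23%) were in none of the 11 windows. A match is a description of letters and does not show that a factor binds.

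Pck1, Pcx and Pck2, the enzymes that lead from pyruvate to phosphoenolpyruvate, rose in knockout-labelled adipocytes, whereas the glycerol 3-phosphate and glycerol genes Gpd1, Gyk and Aqp7 did not pass the test. Aqp9, Fbp1 and G6pc were near the floor and were not tested in the main fit. Pck1 had 5299, 6679, 6376 and 5543 CPM in adipocytes of knockout-labelled mice ko_1137, ko_1139, ko_1151 and ko_1152, against 2989, 4081, 3845 and 3353 CPM in those of wild-type mice wt_1135, wt_1136, wt_1138 and wt_1153. Every knockout-labelled library was above every wild-type one. The means were 5974 ± 658 CPM and 3567 ± 490 CPM (SD, n = 4 each). The log2 change was 0.74 ± 0.15 (SE, normal 95% interval 0.46 to 1.03, edgeR adjusted p = 0.00483). Pcx had 2860, 4093, 2988 and 2576 CPM in the knockout-labelled libraries in the same order of mice, against 1602, 2131, 1949 and 1911 CPM in the wild-type ones. These groups did not overlap either, and mouse ko_1139 was the highest of all for both Pck1 and Pcx. The log2 change of Pcx was 0.72 ± 0.16 (interval 0.40 to 1.04; edgeR adjusted p = 0.00877), or 1.65-fold. Pck2, the mitochondrial carboxykinase, was far less abundant, with 29.7, 26.4, 19.7 and 30.1 CPM in knockout-labelled and 20.7, 17.5, 20.02 and 15.1 CPM in wild-type adipocytes. Knockout-labelled mouse ko_1151 lay inside the wild-type range, and the log2 change was 0.53 ± 0.15 (interval 0.23 to 0.82; edgeR adjusted p = 0.0225).

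**Figure D1:**
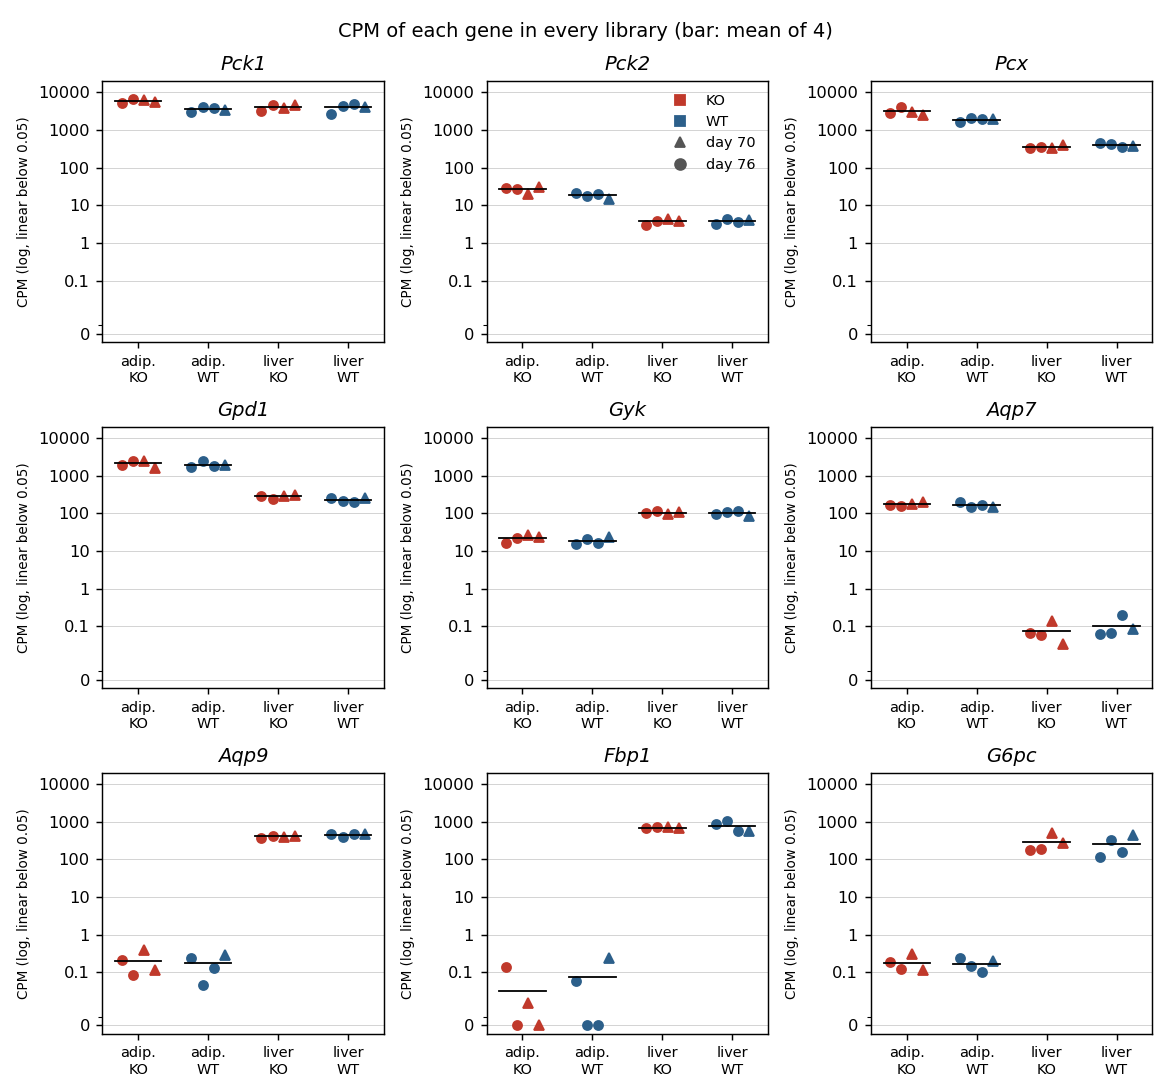
CPM of the 9 genes (log axis, linear below 0.05) in each of 16 libraries, scaled within a tissue, with knockout-labelled (KO, red) left of wild-type (WT, blue) libraries, adipocytes (adip.) left of liver, triangles for day 70, circles for day 76 and a bar at the mean of 4. Pck1 and Pcx do not overlap between the adipocyte groups (Pck1 5299 to 6679 CPM in KO and 2989 to 4081 CPM in WT), and Aqp9, Fbp1 and G6pc stay under 0.4 CPM in every adipocyte library.

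Of the 6 genes tested in adipocytes, 3 were called higher and 0 lower. Among all 13795 genes tested in adipocytes, 35.2% were called, and 18.0% were called higher. Groups did not overlap for 2 of the 6 genes and for 33.9% of all genes tested. Calls and separated groups were thus common in these libraries, and the members' count is to be read against those shares. Scaling by library totals in place of the TMM factors (trimmed mean of M-values) gave a median log2 change of all genes of -0.205 in place of -0.011, and 24.9% in place of 51.3% of calls were higher. Under that scaling 1293 of all 13795 genes were called higher and 3899 lower. Pck1 and Pcx were still called, whereas Pck2 was not (0.33 ± 0.17, edgeR adjusted p = 0.152). Pck2 also lost its call when knockout-labelled mouse ko_1139 or ko_1152 was left out, with a highest edgeR adjusted p of 0.0625. In the mice taken at day 76 alone, 2 knockout-labelled against 3 wild-type, Pck1 stood at 0.72 ± 0.26 (edgeR adjusted p = 0.108), Pcx at 0.87 ± 0.25 (0.0608) and Pck2 at 0.53 (0.0423). Of 14338 genes tested in those mice, 832 were called higher and 898 lower. Day 70 holds only 1 wild-type mouse, and no test was made there.

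Gpd1, which feeds dihydroxyacetone phosphate into glycerol 3-phosphate, had 1983, 2517, 2521 and 1642 CPM in knockout-labelled adipocytes and 1754, 2450, 1830 and 1936 CPM in wild-type ones. The groups overlapped throughout, and the log2 difference was 0.12 ± 0.17 (interval -0.21 to 0.46; edgeR adjusted p = 0.612). Glycerol kinase, Gyk, had 16.8, 22.9, 26.3 and 24.3 CPM in knockout-labelled and 15.7, 20.6, 16.7 and 23.2 CPM in wild-type adipocytes, with a log2 difference of 0.24 ± 0.16 (interval -0.08 to 0.56; adjusted p = 0.269 by edgeR). The glycerol channel Aqp7 had 172.9, 161.4, 175.9 and 204.0 CPM in knockout-labelled adipocytes, against 198.4, 149.7, 170.3 and 148.8 CPM in wild-type ones. Its log2 difference was 0.10 ± 0.11 (interval -0.13 to 0.32; edgeR adjusted p = 0.53). The intervals of these 3 genes leave room for differences in either direction, and scaling by library totals put Gpd1 at -0.08 and Aqp7 at -0.10. Aqp9 had 4 to 14 counts per library in knockout-labelled and 2 to 12 in wild-type adipocytes. G6pc had 4 to 11 counts in knockout-labelled and 4 to 12 in wild-type adipocytes, and Fbp1 had 0 to 6 and 0 to 10 counts.

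Markers of vessel and stromal cells were lower in the same knockout-labelled adipocyte libraries. All 8 endothelial markers were called lower (summed level 184.2 to 420.3 CPM in knockout-labelled and 658 to 1914 CPM in wild-type libraries). So were 6 of 8 fibroblast and progenitor markers (337.7 to 705 against 757.2 to 954.7 CPM) and 6 of 6 mural markers (96.2 to 159.7 against 248.5 to 348.6 CPM). Among all genes tested in adipocytes 17.1% were called lower. An exact permutation test of the mean log2 level of each list gave an adjusted p of 0.0952 for each of these 3 lists. None passed, but 4 against 4 libraries cannot give an exact p under 0.0286, before adjustment over the lists. The endothelial and mural lists were at that smallest p, so the test had little room to pass and decides nothing here. Adipocyte, lymphocyte and brown adipocyte lists had the same adjusted p, the adipocyte list higher in knockout-labelled libraries (0.302) and the others lower. In bulk samples fewer cells of a type and less RNA per cell cannot be told apart. Macrophage markers summed to 54.2 to 265.2 CPM in knockout-labelled and 116.3 to 239.1 CPM in wild-type adipocyte libraries, with the Kupffer cell gene Clec4f listed at 0 in all 8. Lymphocyte markers summed to 3.85 to 15.4 CPM in knockout-labelled and 8.69 to 21.8 CPM in wild-type libraries. Called lower were 1 of 3 skeletal muscle, 1 of 3 brown adipocyte and 1 of 1 red cell markers tested, and 0 of them were called higher. With so few genes tested, beside 17.1% of all genes called lower, these counts do not describe the cell types. Of 6 hepatocyte markers tested in adipocytes 1 was higher and 1 lower. Of 8 adipocyte markers 1 was called higher and 0 lower, with sums of 35790 to 38240 CPM in knockout-labelled and 27070 to 37330 CPM in wild-type libraries. The mean log2 score of the endothelial, fibroblast and mural markers was 3.52 to 4.78 in knockout-labelled and 5.04 to 6.40 in wild-type libraries, with no overlap. With this score as a covariate, Pck2 was the 1 member called (1.09, edgeR adjusted p = 0.0249), while Pck1 stood at 0.52 ± 0.27 (0.381) and Pcx at 0.62 ± 0.32 (0.368). In that fit 261 of all 13795 genes were called higher and 211 lower. Because the score separates the genotype labels, cell makeup and genotype cannot be told apart in these libraries.

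In liver, none of the 8 genes tested passed. Pck1 had 3158, 4611, 3894 and 4580 CPM in livers of knockout-labelled mice ko_1137, ko_1139, ko_1151 and ko_1152, against 2605, 4420, 4868 and 4086 CPM in those of wild-type mice wt_1135, wt_1136, wt_1138 and wt_1153. The groups overlapped, and the log2 difference was 0.02 ± 0.19 (interval -0.36 to 0.40; edgeR adjusted p = 0.98). Pcx had 325.9, 351.3, 341.3 and 411.2 CPM in knockout-labelled and 458.2, 413.4, 343.5 and 373.0 CPM in wild-type livers, a log2 difference of -0.15 ± 0.11 (interval -0.37 to 0.07; edgeR adjusted p = 0.726). Pck2 stayed between 2.93 and 4.45 CPM in knockout-labelled and between 3.26 and 4.38 CPM in wild-type livers. The gene nearest to a call was Gpd1, with 289.4, 243.2, 286.3 and 312.0 CPM in knockout-labelled and 264.8, 217.5, 200.3 and 251.2 CPM in wild-type livers. Its groups overlapped, and the log2 difference was 0.28 ± 0.11 (unadjusted p = 0.0317, adjusted p = 0.538 by edgeR). Differences of the uptake and output genes were small or wide: 0.05 ± 0.11 for Gyk, -0.14 ± 0.10 for Aqp9, -0.12 ± 0.18 for Fbp1 and 0.11 ± 0.42 for G6pc, the catalytic subunit of glucose-6-phosphatase. Aqp7 had 2 to 7 counts per liver library and was not tested.

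The edgeR test called 3 of 13288 liver genes, or 0.0226%, so that 0 of 8 is near that background. An unadjusted p under 0.05 was found for 1 of the 8 genes and for 8.62% of all genes, and DESeq2 and limma-voom called 0 of the 8 as well. CPM of the groups overlapped for every tested member in liver, and did not overlap for 4.66% of all genes.

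**Figure D2:**
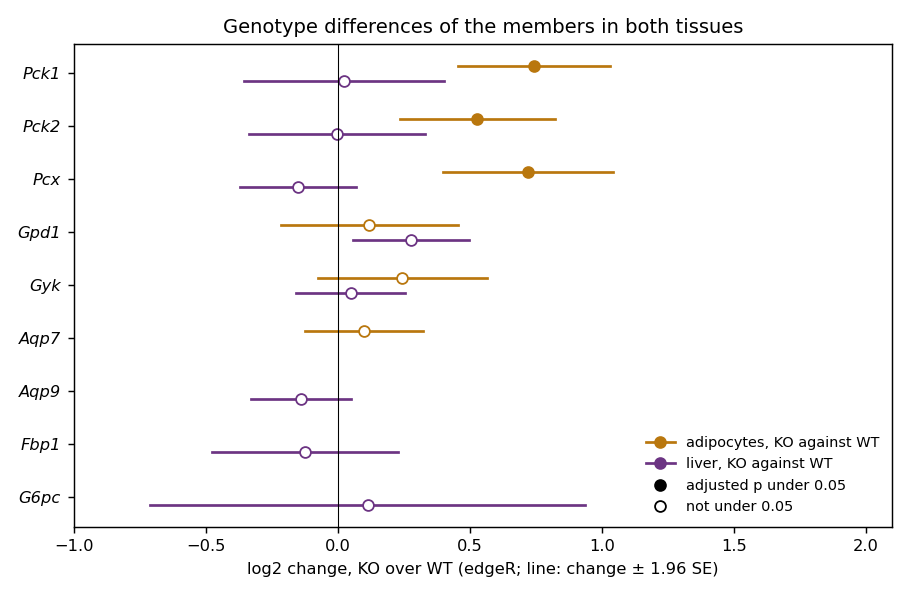
Log2 change of KO over WT (horizontal axis) for each gene in adipocytes (ochre) and liver (purple), with lines for the normal 95% interval and filled points where the edgeR adjusted p was under 0.05. Only Pck1 (0.74), Pck2 (0.53) and Pcx (0.72) in adipocytes are filled, and the widest line is that of G6pc in liver, from -0.71 to 0.94.

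Whether the genotype difference itself differed between the tissues was tested in a model over all 16 libraries. For Pcx the difference in adipocytes exceeded that in liver by 0.89 ± 0.22 on the log2 scale (edgeR adjusted p = 0.011), and it was called under every alternative run. For Pck1 the excess was 0.74 ± 0.29 (edgeR adjusted p = 0.086), and for Pck2 0.55 ± 0.22 (adjusted p = 0.0985 by edgeR), so neither passed. DESeq2 called Pck1 (0.76 ± 0.26, DESeq2 adjusted p = 0.0167). Without the liver of wild-type mouse wt_1135 Pck1 was called (0.90, edgeR adjusted p = 0.0309), and without the adipocytes of knockout-labelled mouse ko_1151 Pck2 was (0.67, edgeR adjusted p = 0.0426). Among 14898 genes tested, 19.1% were called for this difference, against 1 of the 9 members. The contrasts in the tissues come from the same 8 mice. For the other 6 genes the edgeR adjusted p ran from 0.482 to 0.998, with an SE above 1 for Fbp1 and G6pc, whose adipocyte counts are near the floor.

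Apart from genotype, the 9 genes divided sharply between the tissues. Aqp7 was an adipocyte transcript, Aqp9, Fbp1 and G6pc were liver transcripts, and Pck1 was abundant in both. Levels are compared here per kilobase of exon (RPKM, scaled over all 16 libraries). Aqp7 had 47.1 to 60.3 RPKM in knockout-labelled adipocytes and 0.0182 to 0.0594 RPKM in knockout-labelled livers. In wild-type mice Aqp7 had 43.3 to 57.5 RPKM in adipocytes and 0.0273 to 0.0853 RPKM in livers. Aqp9 had at most 0.0782 RPKM in any adipocyte library and at least 106.7 RPKM in any liver. Likewise Fbp1 reached at most 0.118 RPKM in adipocytes and at least 396.5 RPKM in livers, and G6pc at most 0.105 and at least 58.4 RPKM.

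Between adipocytes and livers of knockout-labelled mice the edgeR log2 difference was 2.28 ± 0.16 for Pck2, 2.61 ± 0.16 for Pcx, 2.42 ± 0.16 for Gpd1 and 10.55 ± 0.20 for Aqp7, all higher in adipocytes. It was -2.75 ± 0.14 for Gyk, -11.54 ± 0.26 for Aqp9, -14.39 ± 0.35 for Fbp1 and -11.12 for G6pc, all lower in adipocytes. Of the 9 genes 4 were thus called higher and 4 lower, where 79.8% of 14229 genes were called, 40.4% higher and 39.3% lower. In wild-type mice, which share no library with that contrast, the same 4 genes were higher in adipocytes, by 1.73 ± 0.15 (Pck2), 1.72 ± 0.17 (Pcx), 2.55 ± 0.18 (Gpd1) and 10.05 ± 0.24 (Aqp7). Gyk (-2.96 ± 0.15), Aqp9 (-11.80), Fbp1 (-13.77), G6pc (-11.06) and Pck1 (-0.70 ± 0.26, edgeR adjusted p = 0.029) were lower, so 4 were higher and 5 lower. Among 14366 genes 77.6% were called in wild-type mice, 40.5% higher and 37.2% lower. The fitted folds of Aqp7, Aqp9, Fbp1 and G6pc rest on a few counts in one tissue and are not precise. The Pck1 call in wild-type mice was lost with scaling by library totals (-0.06, edgeR adjusted p = 0.833) and with the mouse as a block (-0.68, adjusted p = 0.0721 by edgeR). It was also lost without the liver of wt_1136, wt_1138 or wt_1153 or the adipocytes of wt_1135, with a highest edgeR adjusted p of 0.0799. In knockout-labelled mice Pck1 stood at 0.04 ± 0.16 (edgeR adjusted p = 0.831), and at 0.45 with scaling by library totals (edgeR adjusted p = 0.0123). Tissue and extraction method cannot be told apart here.

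In knockout-labelled adipocytes the order of levels was Pck1 (1463 ± 152 RPKM), Gpd1 (614.4 ± 121.4), Pcx (552.4 ± 111.2), Aqp7 (53.0 ± 5.4), Pck2 (2.85 ± 0.51) and Gyk (2.45 ± 0.44), then G6pc, Aqp9 and Fbp1 under 0.11 RPKM (SD, n = 4). Gpd1 and Pcx overlapped there, as did Pck2 and Gyk. In wild-type adipocytes the order was Pck1 (862.9 ± 129.4 RPKM), Gpd1 (558.5 ± 97.2), Pcx (331.2 ± 42.5), Aqp7 (48.8 ± 6.4), Gyk (2.04 ± 0.38) and Pck2 (1.95 ± 0.26), with overlap only of Gyk and Pck2 among these 6. In knockout-labelled livers Pck1 (1418 ± 248 RPKM) and Fbp1 (490.5 ± 20.9) led, followed by G6pc, Aqp9, Gpd1 and Pcx between 90.0 and 139.8 RPKM with each neighbour overlapping the next, then Gyk (16.3 ± 1.4) and Pck2 (0.579). Wild-type livers had Pck1 at 1397 ± 337 RPKM and Fbp1 at 536.2 ± 163.5 RPKM, and the means of Aqp9, G6pc, Pcx and Gpd1 lay between 94.7 and 129.2 RPKM.

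**Figure D3:**
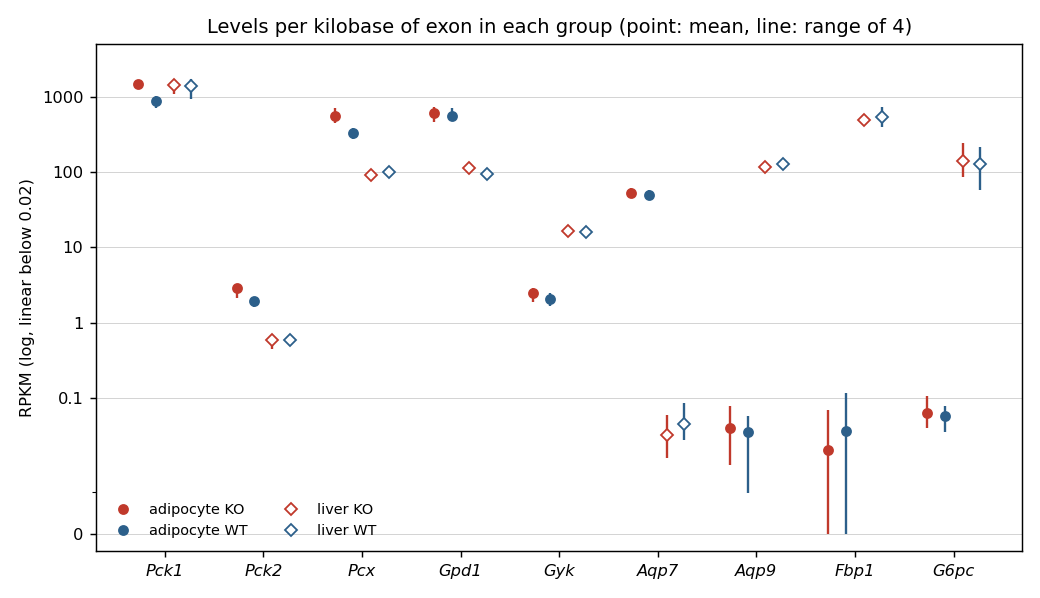
RPKM (log axis, linear below 0.02) of the 9 genes in each of the 4 groups, as the mean (point) and range (line) of 4 libraries. Pck1 averages 1463 RPKM in KO and 862.9 RPKM in WT adipocytes and 1418 RPKM in KO and 1397 RPKM in WT livers, while Aqp7 and the trio Aqp9, Fbp1 and G6pc swap places between the tissues.

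A ratio of 2 genes within a library needs no scaling factor. Pck1 was counted 1.63 to 2.15 times as often as Pcx in knockout-labelled adipocytes and 1.76 to 1.97 times as often in wild-type ones, with a log2 difference of 0.04 (exact two-sided permutation p = 0.714). The Pck1 to Pck2 ratio was 178.6 to 322.9 in knockout-labelled and 144.3 to 233.4 in wild-type adipocytes, a log2 difference of 0.23 (exact permutation p = 0.4). Gyk was counted 0.00849 to 0.0148 times as often as Gpd1 in knockout-labelled and 0.00841 to 0.0120 times as often in wild-type adipocytes. In liver that ratio was 0.333 to 0.484 in knockout-labelled and 0.349 to 0.586 in wild-type libraries, a log2 difference of -0.23 (exact permutation p = 0.2). All 7 ratios tested overlapped between the labels, and the adjusted p was 0.714 for each, where 0.0286 is the smallest exact p that 4 against 4 libraries can give.

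Most listed genes that bring carbon to phosphoenolpyruvate rose in knockout-labelled adipocytes, where 11 of 13 were called higher and 0 lower, with a median log2 change of 0.64. Among all genes tested there, 18.0% were called higher and 17.1% lower, and the counts of each list are to be read against these shares. The lists were chosen with earlier results of these data known, so that comparison is not independent. The dicarboxylate carrier Slc25a10 (0.02) and the aminotransferase Got1 (0.64, edgeR adjusted p = 0.0666) did not pass. Those that rose include the aminotransferase Got2, at 56.0 ± 3.8 CPM in knockout-labelled and 18.3 ± 2.0 CPM in wild-type adipocytes (SD, n = 4 each; log2 change 1.61 ± 0.10, edgeR adjusted p = 2.16e-05), and the lactate dehydrogenase subunit Ldhb (1.14 ± 0.08, edgeR adjusted p = 4.32e-05). Of the reversible steps shared by glycolysis and gluconeogenesis, 6 of 7 tested were higher and 0 lower (median 0.83), among them phosphoglycerate kinase Pgk1 (0.88 ± 0.10) and the mutase Pgam1 (0.84 ± 0.11). Several of these genes have processed copies in the genome whose reads could be shared, and Eno1 was listed at about 1 CPM, so their values are less certain. Of the one-way glycolytic enzymes and their regulators 6 of 12 were higher, such as the phosphofructokinase Pfkl (0.82 ± 0.13) and the pyruvate dehydrogenase kinase Pdk2 (0.67 ± 0.11), and 1 was lower, the hexokinase Hk1 (-1.001 ± 0.22).

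Among other genes of glycerol and glycerol 3-phosphate, 4 of 8 were higher and 0 lower (median 0.33). The acyltransferases Agpat9 (1.14 ± 0.19) and Gpam (0.92 ± 0.17), which esterify glycerol 3-phosphate, had the smallest p. In the glucose release list 1 of 3 tested was higher, the glucose 6-phosphate transporter Slc37a4 (0.36 ± 0.10; 2 of 3 without ko_1152), with G6pc3, a widely expressed glucose-6-phosphatase, at 0.22 (edgeR adjusted p = 0.0528). Of 19 regulators 4 were higher and 2 lower, beside the 18.0% and 17.1% of all genes. With single libraries left out 2 to 7 regulators were higher and 1 to 3 lower, with 7 higher without ko_1137, 2 higher without ko_1139, ko_1151, ko_1152 or wt_1135, 3 lower without wt_1136 and 1 lower without ko_1137, ko_1151, ko_1152, wt_1135 or wt_1138. Over all genes those fits called 1832 to 2556 higher and 1721 to 2740 lower. With library totals 0 regulators were higher and 5 lower, where 1293 of all 13795 genes were higher and 3899 lower. Pparg, the nuclear receptor of adipocyte identity, had a log2 change of 0.40 ± 0.08 that was called with TMM and not with library totals. Sik1, a kinase induced by cAMP, fell by 1.49 ± 0.16, to 41.5 ± 8.8 CPM in knockout-labelled against 116.4 ± 18.4 CPM in wild-type adipocytes. The median over all genes tested was -0.011. With library totals the higher calls in the other lists were 9 of 13 for carbon supply, 5 of 7 for the reversible steps and 4 of 12 for one-way glycolysis. They were 3 of 8 for glycerol genes and 0 of 3 for glucose release, beside 1293 of all 13795 genes. In day 76 mice alone 832 of all 14338 genes were higher and 898 lower. There the higher calls of the lists were 5 of 13, 3 of 8, 3 of 12, 2 of 8 and 0 of 3 in the same order. Of 19 regulators 0 were higher and 1 lower in those mice. With the vessel and stromal score as a covariate, which separates the labels as given above, 261 of all 13795 genes were higher and 211 lower. The called numbers in that fit were 4 of 13 for carbon supply, 1 of 19 (lower) for regulators and 0 in the other 4 lists.

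In liver, 0 genes of these 6 lists passed the edgeR test. The smallest p in each list belonged to the dicarboxylate carrier Slc25a10 (-0.35 ± 0.09), Gpi1 (0.20 ± 0.09), G6pc3 (-0.20 ± 0.11), Pfkfb3 (0.77 ± 0.21), the lipase Mgll (0.44 ± 0.12) and Pparg (-0.83 ± 0.30), with edgeR adjusted p of 0.345 to 0.643. Next in each list came Gpt (-0.30), Aldoc (0.29), Slc37a4 (-0.08), Pdk2 (-0.37), Pnpla2 (0.13) and Klf15 (-0.21), with edgeR adjusted p of 0.47 to 0.889. An unadjusted p under 0.05 was found for 9 of the 68 list genes tested in liver, beside 8.62% of all genes. DESeq2 called 1 carbon supply gene lower and 1 glycolysis gene higher, and 53 genes higher and 49 lower among all 13288.

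**Figure D4:**
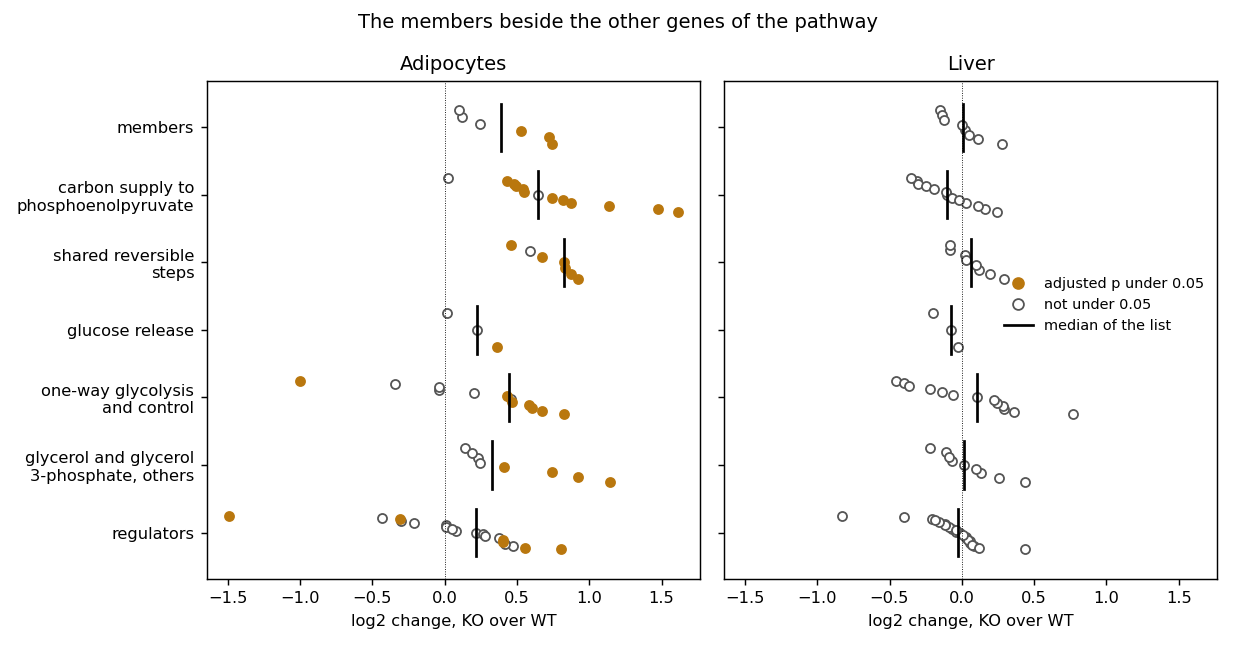
Log2 change of KO over WT (horizontal axis) for the 9 genes (members) and 6 lists of pathway genes in adipocytes (left) and liver (right), one point per gene tested, filled where the edgeR adjusted p was under 0.05, with a bar at the median of each list. The adipocyte medians run from 0.22 to 0.83 and no liver point is filled.

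G6pc varied more between mice than any other of the 8 genes tested in liver. It had 178.1, 184.8, 484.6 and 276.5 CPM in livers of knockout-labelled mice ko_1137, ko_1139, ko_1151 and ko_1152, against 116.8, 331.4, 156.9 and 433.4 CPM in those of wild-type mice wt_1135, wt_1136, wt_1138 and wt_1153. Its coefficient of variation was 50.9% in knockout-labelled and 57.3% in wild-type livers, against 4.045% in knockout-labelled and 30.1% in wild-type livers for Fbp1. Of the 3 mice taken at day 70, ko_1151 and wt_1153 held the highest G6pc levels of their groups. In a fit with genotype and age, chosen after these values were seen, G6pc was 1.08 ± 0.31 higher on the log2 scale at day 70 than at day 76 (unadjusted p = 0.00561, adjusted p = 0.998 by edgeR). The edgeR test called 0 of 13288 liver genes for age (0%), with 465 at an unadjusted p under 0.05. In adipocytes 0 of 13795 genes (0%) were called for age and 1560 had an unadjusted p under 0.05, Gyk among them (0.37 ± 0.13, unadjusted p = 0.0199, adjusted p = 0.359 by edgeR). Feeding state at collection is not given in the labels, and its part was not tested.

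**Figure D5:**
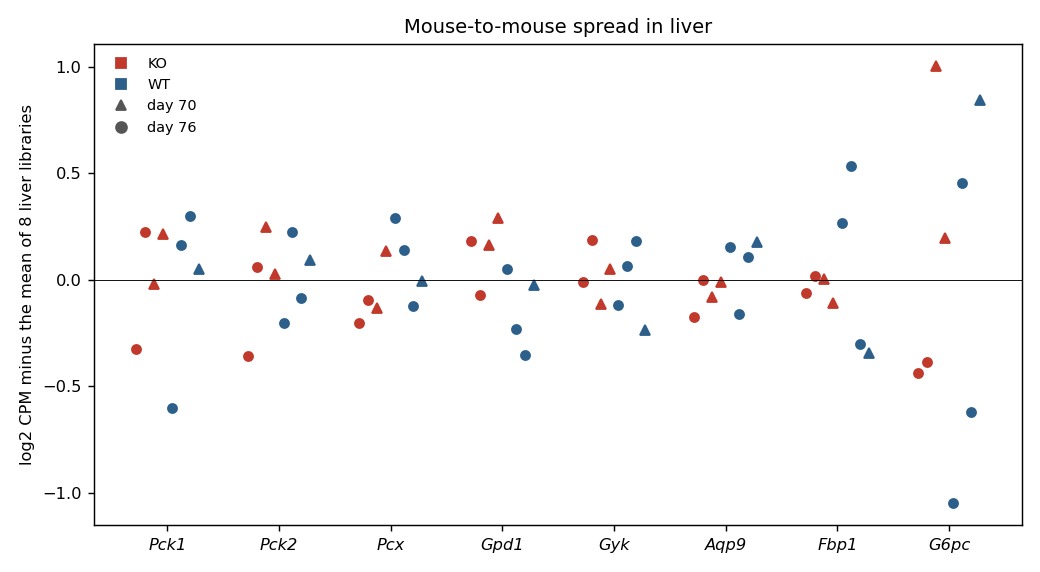
Log2 CPM of each liver library minus the mean of 8 livers (vertical axis) for the 8 genes tested there, with KO (red) left of WT (blue), triangles for day 70 and circles for day 76. G6pc spans about 2 log2 units, and each of the other genes spans less than 1 unit.

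For each member the gene with the most similar pattern over the 16 libraries was taken as the one with the smallest root mean square difference of centred log2 CPM among 12634 candidates. These were Cs, the citrate synthase gene, for Pcx (0.169), Mkks for Pck1 (0.203), Smurf1 for Pck2 (0.182), Ormdl3 for Gpd1 (0.208) and Ggact for Gyk (0.153). The second nearest genes stood at 0.172 for Pcx, 0.205 for Pck1, 0.216 for Pck2, 0.211 for Gpd1 and 0.167 for Gyk. For Pcx, Pck1 and Gpd1 the nearest gene was thus almost tied with another. Scaled over all 16 libraries, unlike the CPM of the members above, Cs averaged 940 CPM in knockout-labelled and 594.6 CPM in wild-type adipocytes. In livers it averaged 167.2 CPM in knockout-labelled and 168.7 CPM in wild-type mice. For the genes held by one tissue the nearest were Fabp4, the fatty acid binding protein of adipocytes, for Aqp7 (0.25), Abcg8 for Aqp9 (0.337), Abcb11 for Fbp1 (0.473) and Apoa4 for G6pc (0.512). These distances are descriptions over libraries that share mice, tissues and depth.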

How the data were processed

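RNA of adipocytes and liver from 8 mice was sequenced as 16 poly-A libraries. The authors deposited raw read counts per gene for each library; these were made on build mm10 with STAR 2.5.2b and featureCounts 1.5.0 after bcl2fastq 2.17, per the submitters' processing notes. Which annotation and strand setting were used, and how multi-mapping reads were treated, is not given in the sources used here. Of counts from 1 to 20, 77.9% were even, so low counts are not counts of independent molecules and halved counts were tried as an alternative chosen after seeing the data. Floors and counts cover counting error only.

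Libraries were grouped by tissue and genotype in their titles. Whether the 4 mice per group came from separate litters is not stated, so p-values measure only the spread between these mice. The main test was edgeR 4.0.16 (R 4.3.3) by quasi-likelihood with TMM scaling, filterByExpr (minimum count 10) by group and two-sided p-values adjusted by Benjamini-Hochberg over all genes tested, called at adjusted p under 0.05. The SE was taken as the log2 change divided by the square root of F. Intervals are normal 95% intervals (1.96 SE), which are narrower than the F-test on so few libraries implies. CPM was scaled by TMM within a tissue, and over all 16 libraries for the search of the nearest genes. RPKM was computed from the counts with factors over 16 libraries and the union of exons in GENCODE M21. Ratios used a pseudocount of 1, and ratios and marker lists were compared by exact permutation tests. Alternatives were DESeq2 1.42.0, limma-voom (limma 3.58.1), other scaling factors, no filter, age or marker score as a covariate, leaving out each library, and the mouse as a block.

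Adipocyte and liver libraries share mice by the numbers in their titles, and the deviations of the 2 libraries of a mouse from their group means correlated between -0.0592 and 0.0916. Genes named were the 9 members, the nearest gene to each, and the 2 genes with the smallest p per list and tissue. Trib1 and Adipoq were named to check labels, and Cyp2e1, albumin and Clec4f from the marker lists. Eno1, Hk1, Got1 and Slc25a10 (in adipocytes) were also named, and apart from Trib1 these genes outside the rule were chosen after their values were seen. Members and lists were chosen with earlier results of these data known. No pair of libraries within a group looked like repeats of 1 library, since chi-square over its degrees of freedom was 32.13 or more.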

Additional observations from a re-analysis of the deposited data

Results flagged for a closer look

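The genotype difference of Pcx differed between the tissues. It was higher by 0.89 ± 0.22 on the log2 scale in adipocytes than in liver (SE; edgeR quasi-likelihood test over 16 libraries, adjusted p = 0.011). With the mouse as a block the edgeR adjusted p was 0.0456, and with library totals 0.0316. Among 14898 genes tested 19.1% were called for this difference. Pcx was higher in knockout-labelled than in wild-type adipocytes without overlap of the 8 libraries, and its liver groups overlapped. Adipocyte groups did not overlap for 33.9% of all genes tested there.

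Aqp7 in the liver of wild-type mouse wt_1138 was flagged as apart from its group, at 0.202 CPM (7 counts) against 0.0638 to 0.0861 CPM (2 to 4 counts). A gap of so few counts is not precise, and the liver of knockout-labelled mouse ko_1151 also had 7 counts. The liver library of wt_1138 held 2.60 CPM of Adipoq, a gene of adipocytes, where the other wild-type livers held 0.043 to 0.319 CPM. Of 36 groups of 4 libraries examined for the 9 members, 1 was singled out in this way, and chance alone does so in about 1 of 20 groups. The part of carried-over adipocyte RNA was not tested.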

How the results depend on the processing

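In adipocytes 3 members were called higher under every alternative run except library totals (2), day 76 mice alone (1), the vessel and stromal score as a covariate (1) and leaving out single libraries (2 to 3). Over all genes 18.0% were called higher in the main fit. In those alternatives 1293 of 13795, 832 of 14338, 261 of 13795 and 1832 to 2556 genes were higher, in the same order. The tissue difference was called for 1 member, and for 2 with DESeq2, with a range of 1 to 2 when single libraries were left out: Pck1 was then called, or Pck2, each in 1 of 16 fits, while Pcx stayed between 0.72 and 0.98. Over all genes 19.1% were called in the main fit. With single libraries left out 1060 to 1749 genes were higher and 915 to 1757 lower. The share of all genes with DESeq2 is not given here, so its 2 calls cannot be read against it. Pairing the libraries of a mouse as a block left the tissue difference of Pcx at 0.88 (edgeR adjusted p = 0.0456) and ended the call of Pck1 in wild-type adipocytes against liver (-0.68), and it changed no other call of a member. That Pck1 call was also lost in 4 of 8 fits that left out a library (-0.86 to -0.60, highest edgeR adjusted p 0.0799). The other signs that turned belonged to values that passed in neither setting, and the cause was not tested.

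In adipocytes Gpd1 stood at -0.076 with library totals and -0.10 with the marker score, Gyk at -0.51 with that score, and Aqp7 at -0.10 with library totals and -0.045 in day 76 mice. In liver Pck2 stood at 0.018 with library totals, 0.0020 with DESeq2, 0.012 with limma-voom, 0.0058 with halved counts and 0.012 with the block. Liver Pck1 was -0.030 in day 76 mice and -0.00025 with age, and liver G6pc was -0.15 and -0.17. The tissue difference was -0.016 for Gyk with library totals and 0.0028 for G6pc with DESeq2. With single libraries left out, liver values ran from -0.13 to 0.13 for Pck1, -0.092 to 0.098 for Pck2, -0.018 to 0.12 for Gyk, -0.24 to 0.062 for Fbp1 and -0.28 to 0.48 for G6pc. Tissue differences ran from -0.24 to 0.57 for Aqp9, -2.57 to 0.96 for Fbp1 and -0.42 to 0.36 for G6pc, and Pck1 between knockout-labelled adipocytes and livers from -0.071 to 0.10. Log2 ratio differences ran from -0.0104 to 0.123 for Pck1 to Pcx and -0.0355 to 0.242 for Gyk to Gpd1 in adipocytes. In liver they ran from -0.0643 to 0.198 for Pck1 to Pck2, -0.0706 to 0.369 for Pck1 to Pcx and -0.134 to 0.701 for G6pc to Fbp1. At 0 to 14 counts per library, a modest genotype difference in Aqp9, Fbp1 or G6pc in adipocytes was not detectable. The main fit filtered these genes out. With no filter all 9 members were tested in adipocytes, and the 3 called were Pck1, Pcx and Pck2.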
